A study of Mus musculus with 22 samples.

Results

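Chondroblasts of the Notum mutant mouse trachea were compared with control chondroblasts at E13.5. The members were chosen by the names of the columns of 1 count table, and they are 5 of the 22 samples of the series, of which 18 had a column that matched a group. The study sequenced RNA of whole tracheas at E11.5 and of populations that had been sorted from E13.5 tracheas. Each sorted sample pooled 5 tracheas. Live cells were sorted that lacked both EpCAM, the epithelial surface protein stained with APC, and GFP from the smooth muscle reporter γSMA eGFP, so the population is defined by the absence of 2 signals. The column name of mutant C marks the lack of GFP less plainly than the other 4 names do, and it was read as lacking GFP too. The mutants were Notum 150/150; γSMA eGFP, a loss of function allele of Notum. By the labels, controls 1 and 2 were Bmp4 f/f; γSMA eGFP, with no Cre named, and control 3 was Notum 300/300; γSMA eGFP. The labels list 3 control and 4 mutant samples, and the table held 2 control and 3 mutant columns, which carry no replicate number of the labels and so cannot be tied to a control genotype. Control A carries an earlier date, and control B and mutants A, B and C carry a later date, and what the dates refer to is not given. One number stands in the column names of both mutant B and mutant C, with no key to it, so whether all 3 mutants are independent samples cannot be told from the columns. Date, control genotype and any other difference between control A and control B cannot be told apart. The comparison asks which transcripts differ between tracheal chondroblasts of the Notum mutants and of the controls.

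Notum is a secreted carboxylesterase that removes the lipid from Wnt proteins and so keeps them from activating their receptors. Wnt ligands that act through β-catenin switch on targets such as Axin2 and Lef1, several of which feed back on the pathway, while other Wnt ligands act through cell polarity and calcium. In the trachea, mesenchymal cells that express Sox9 gather into condensations, which lay down type II collagen and become the cartilage rings.

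Total counts were 21678177 and 13513229 in controls A and B, and 21521621, 20243073 and 19746601 in mutants A, B and C. A level is given as CPM, the count relative to the library total, scaled by TMM over the 9 sorted libraries, always in the order control A, control B, mutant A, mutant B, mutant C. The lowest level distinguished from absence, 3 counts, was 0.138 CPM for control A and 0.222 CPM for control B before scaling, which takes in counting error only. Differences are log2 fold changes of the 3 mutants over the 2 controls, ± SE, from edgeR. CPM is not scaled by transcript length, so the order of genes by CPM is not one of transcript numbers.

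The chondroblast label was checked against 8 markers, whose summed level was 2578 and 2356 CPM in the controls and 3586, 3989.5 and 3108 CPM in the mutants. The sum was 865 and 1795 CPM in the 2 control muscle libraries and 346 and 423 CPM in the 2 control epithelium libraries of the same age. All 8 markers were above 1 CPM in at least 1 of the 5 libraries, and Col2a1 was the highest in CPM. Sox9 was not higher in each library than in muscle, at 211 CPM in control A against 205 and 450 CPM in the muscle libraries. In the smooth muscle list the sum was 368 and 351 CPM in the controls and 438, 345 and 415 CPM in the mutants, against 20252 and 15772 CPM in sorted muscle. The epithelial list summed to 41.3 and 36.4 CPM in the controls and 32.6, 21.4 and 35 CPM in the mutants, against 4338 and 5085 CPM in sorted epithelium. Of its 17 members, 10 were under 1 CPM in all 5 libraries, Epcam among them. By these sums the labelled markers were higher than in either sorted population, with control B at 2356 CPM nearest to muscle, and the markers of the removed populations were far lower than in them.

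Control B stood apart from the other 4 libraries. Controls A and B differed by over 2-fold in 3004 of 14120 genes (21.3%), more than any pair of mutants, which differed in 2.73%, 3.24% and 6.55%. Against the mutants A, B and C, control A differed by over 2-fold in 9.16%, 13.7% and 6.77% of genes. For control B these shares were 20.3%, 20.8% and 21%. Ddx3y, a gene of the Y chromosome, had 1522 and 1 counts in the controls and 1094, 1074 and 867 in the mutants. Kdm5d and Eif2s3y had 0 counts in control B, so control B lacked Y-linked RNA that the other 4 libraries held. Hemoglobin transcripts set control A apart: 11 red cell genes summed to 76996 and 7857 CPM in the controls and 9755, 7491 and 10337 CPM in the mutants, with Hba-a1 the highest in CPM. The part of these differences between libraries in the results below was not tested.

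Of 26202 gene symbols, 14120 reached 1 CPM in over 50% of the libraries of a group and were tested. The mutants alone reached it in 1593 genes and the controls alone in 142. By the rule it takes 2 of 3 mutants but both controls. With edgeR 0 genes (0%) passed an adjusted p of 0.05. The smallest adjusted p was 0.0540, and 1762 genes had an unadjusted p under 0.05. DESeq2, the tool that the study's text names, gave 526 genes at an adjusted p under 0.05, and limma voom gave 5. The study's thresholds were a p under 0.05, taken here as unadjusted, and a fold change over 1.5. The study also asked for an FPKM, a level scaled by transcript length, over 1, where CPM was used here. At these thresholds DESeq2 gave 941 genes higher and 487 lower. With edgeR 778 genes (5.51%) were higher and 410 (2.9%) were lower, which is named a call below. Of these, 555 genes (3.93%) were higher and 271 (1.92%) were lower against each control, with every mutant beyond both controls and the mean of the mutants over 1.5-fold from each control. Of the 555, 129 (23.2%) had reached 1 CPM in the mutants alone, among them the genes given below as counts, and of the 271, 43 (15.9%) in the controls alone. "Rose" and "fell" are used below for these 826 genes only, and none of them passed the adjustment in edgeR. For comparison, the 3 mutants were all above both controls in 2496 genes (17.7%) and all below both in 2231 (15.8%), whatever the size or test. The median log2 fold change over all genes was 0.02.

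Several of these counts rest on single libraries. In the libraries of the later date alone, which leaves out control A so that control B stands for the controls, the genes higher and lower against the control numbered 2795 and 1395, and 2540 genes passed the adjustment. Without control B they numbered 1347 and 610, with 106 past the adjustment. A fit of all 9 sorted libraries with terms for population and date kept 265 of the 555 higher and 105 of the 271 lower. The genes described below that lost their call in it are named with their value there. It gives chondroblasts, muscle and epithelium 1 date term in common and takes their spread together. Some lost calls had a larger fold change there, as Msx1 (2.65 against 2.15), and others a smaller one, as Fgf10 (-0.38 against -1.13). The part of the date in the lost calls was not tested. Leaving out mutant A gave 363 higher, and leaving out mutant B gave 356 higher and 173 lower. The genes that kept their call without each of the 5 libraries in turn were 243 of the 555 higher and 109 of the 271 lower. When the log2 ratios to each control are set against each other, these genes lie in the 2 corners where both ratios have the same sign.

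**Figure D1:**
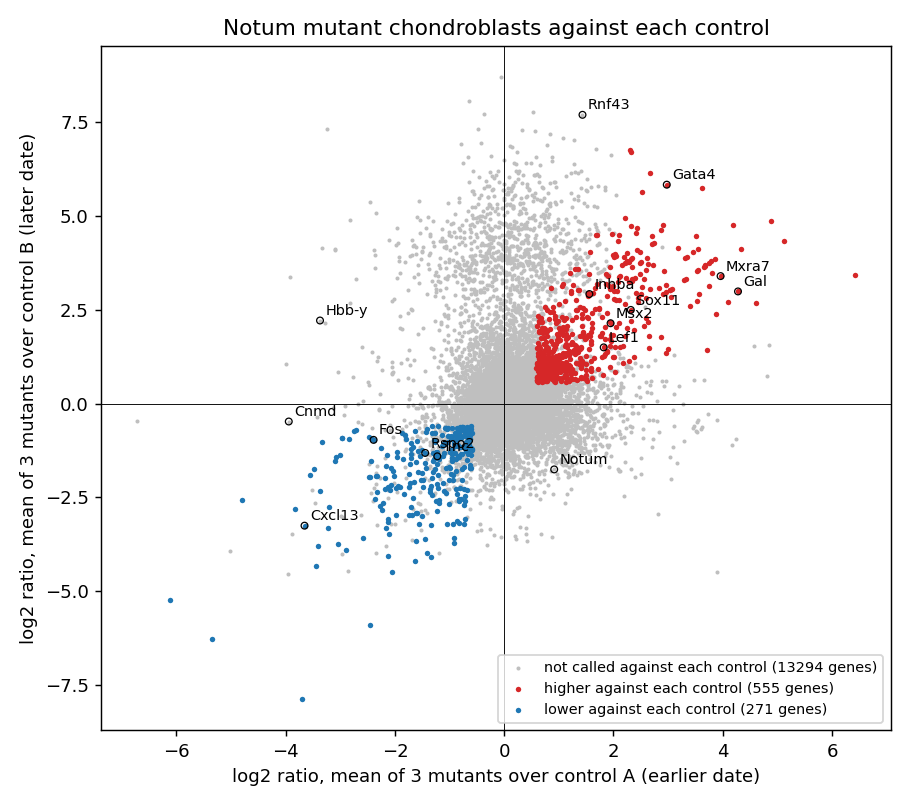
Log2 ratio of the mean of the 3 mutants to control A (x axis) and to control B (y axis) for 14120 genes. The 555 genes higher (red) and 271 genes lower (blue) against each control sit in the upper right and lower left corners, while Notum, Cnmd and Hbb-y lie where the 2 controls give opposite signs or unlike sizes.

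Notum itself, at chr11:120653788-120661193 of GRCm38.p6, gave no single direction. Its level was 13.3 and 84.5 CPM in controls A and B and 33, 34.5 and 13.6 CPM in mutants A, B and C. Control B was the highest of the 5 libraries, control A the lowest, and the mutants lay between them, so the groups overlapped. The log2 fold change was -0.85 ± 0.75, with an adjusted p of 0.67 in edgeR. Without control B it was 1.01, the opposite sign. In the libraries of the later date alone, which is without control A, it was -1.64. Each of these fits leaves a single control, so the spread between the controls does not enter it. The table held 3 entries named Notum, each with counts in all 5 libraries. What the entries stand for is not given, so RNA from the 150 allele cannot be told apart from intact Notum RNA.

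Of 8 Wnt ligands tested, 2 rose and 2 fell, 25% each against 3.93% and 1.92% of all genes. Their median log2 fold change was -0.25 against 0.02 over all genes. It was 0.098 against control A and -0.55 against control B, so its sign depended on the control. Wnt2, a ligand of the β-catenin branch made in lung and tracheal mesenchyme, fell from 23.3 and 24.4 CPM in the controls to 14.4, 14.2 and 8.88 CPM in the mutants, a log2 fold change of -0.92 ± 0.29. All mutants were below both controls. Wnt2b, its closest relative, was lower at 3.44 and 5.5 against 1.62, 1.14 and 1.21 CPM. The 2 that rose, Wnt4 and Wnt10a, were near absence in the controls and tested through their level in the mutants alone, Wnt10a with 2 and 0 counts in the controls and 49, 58 and 34 in the mutants and Wnt4 with 3 and 0 counts in the controls and 33, 37 and 17 in the mutants. Wnt5a, a ligand of the noncanonical branch, stood at 228 and 232 CPM in the controls and 230.4, 236 and 188 CPM in the mutants. Its groups overlapped, and its log2 fold change was -0.07 ± 0.13. The 2 genes of Wnt secretion, Wls and Porcn, did not pass, with log2 fold changes of 0.30 and 0.50. Calls were lost for Wnt2b without control B, mutant A, mutant B and mutant C (-1.91 to -1.38) and for Wnt4 without mutant A and mutant B, where it was not tested. The fit of 9 libraries also ended the call of Wnt2 (-1.94) and Wnt2b (-1.67).

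Among 12 secreted inhibitors tested, 2 rose and 0 fell, 16.7% and 0% against 3.93% and 1.92% of all genes, and Draxin of the 2 was tested through the mutants alone. Wif1, which binds Wnt ligands outside the cell and is also a target of the pathway, rose from 289 and 222 to 412, 486 and 398 CPM, a log2 fold change of 0.77 ± 0.16. Each mutant lay above both controls. Draxin, a Wnt antagonist known from axon guidance, had 12 and 0 counts in the controls and 51, 70 and 77 in the mutants. Sfrp1 and Sfrp2, decoys that resemble the Frizzled receptors, overlapped between groups, as did Dkk3. Sfrp2 stood at 115 and 306 CPM in the controls and 143, 83.8 and 134 CPM in the mutants, so control B alone was high. Among the 15 receptors and coreceptors, Fzd10 rose with 16 and 0 counts in the controls and 92, 137 and 93 in the mutants, and Fzd3 was higher at 47.2 and 40.4 against 70.1, 64.7 and 73.8 CPM but under 1.5-fold against control A. Ptk7, the highest of the list in CPM, stood at 81.3 and 226 CPM in the controls and 224, 231 and 155 CPM in the mutants, with control A alone low. Without control B, Wif1 (0.57) and Fzd3 (0.55) were no longer past 1.5-fold, and the calls of Draxin and Fzd10 were lost on leaving out any 1 of the 3 mutants. In the 9-library fit Draxin, Wif1 (0.65) and Fzd3 (1.0) lost the call.

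Rspo2 and Rspo3 encode R-spondins, secreted proteins that raise Wnt signalling by removing the ligases ZNRF3 and RNF43 from the cell surface, and both fell. Rspo2 (chr15:43020788-43171594) stood at 78.6 and 71.2 CPM in the controls and 26.8, 28.5 and 30.5 CPM in the mutants. Every mutant was under every control, and the log2 fold change was -1.38 ± 0.15, with an adjusted p of 0.0848 in edgeR. Rspo3 (chr10:29453106-29535867) stood at 98.4 and 81.6 CPM against 33.8, 28.2 and 42.9 CPM, a log2 fold change of -1.36 ± 0.21. Both genes kept their call without each library in turn. Znrf3, which marks Frizzled receptors for removal and is itself a target, rose from 8.01 and 4.03 to 22.4, 25.2 and 17.8 CPM, a log2 fold change of 1.86 ± 0.39. Rnf43, its relative, stood at 7.81 and 0 CPM in the controls and 21.8, 25.2 and 17 CPM in the mutants and was not called, with the controls far apart. Of the R-spondin receptors, Lgr4 was lower by a log2 fold change of -0.85 ± 0.28 but under 1.5-fold against control A, and the third R-spondin tested, Rspo1, overlapped between groups at 8.1 and 17.5 CPM in the controls and 22.4, 21.1 and 14.2 CPM in the mutants. In all, 1 of the 9 genes of this axis rose and 2 fell, 11.1% and 22.2% against 3.93% and 1.92% of all genes. The median log2 fold change was 0.23, or 0.55 against control A and -0.05 against control B. The call was lost for Lgr4 without control B, mutant A and mutant C (-0.83 to -0.54). With all 9 sorted libraries fitted, the call was lost for Rspo3 (-0.94), Znrf3 (1.94) and Lgr4 (-0.80).

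Inside the cell, 6 of 21 genes of β-catenin signalling rose and 0 fell, 28.6% and 0% against 3.93% and 1.92% of all genes, with a median log2 fold change of 0.41. Gsk3b, a kinase of the complex that marks β-catenin for destruction, rose from 38.8 and 40.6 to 77.6, 75 and 73.5 CPM, a log2 fold change of 0.93 ± 0.14. Bcl9 and Bcl9l, which tie β-catenin to the transcription machinery, gave log2 fold changes of 0.70 ± 0.16 and 1.09 ± 0.23. The Groucho corepressors Tle3 and Tle4, which silence targets in the absence of β-catenin, rose as well. Tle3 stood at 6.83 and 2.93 CPM against 14.4, 20.1 and 17.5 CPM, and Tle4 at 15.2 and 14.8 CPM against 20, 25.1 and 30.7 CPM. The sixth, Lef1, is also among the targets below. Thus parts of the pathway that transmit the signal and parts that restrain it were both higher. Ctnnb1, which encodes β-catenin, was at 651 and 722 CPM in the controls and 875, 903 and 755 CPM in the mutants, above the controls in all mutants but under 1.5-fold. Dvl1, an adaptor below the receptors, was higher at 12 and 13.4 against 22.4, 21.2 and 16.8 CPM but not by 1.5-fold against control B. Leaving out single libraries ended the calls of Tle4 without mutant B (0.76) and mutant C (0.60) and Dvl1 without control A, mutant A and mutant B (0.59 to 0.63). Population and date terms over 9 libraries ended the call of Bcl9 (0.62), Bcl9l (0.94), Tle4 (0.97) and Dvl1 (1.13).

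The list of β-catenin targets held the largest share of genes that rose among the lists of at least 10 genes. Of 18 targets tested, 9 rose and 1 fell, 50% and 5.56% against 3.93% and 1.92% of all genes, and the median log2 fold change was 0.91. The list was written with earlier results of these data known and so gives no independent support. Of the 9, Lef1, Wif1 and Znrf3 are counted in another Wnt list as well. Lef1 (chr3:131110297-131224357), a DNA-binding partner of β-catenin, stood at 27.8 and 34.6 CPM in the controls and 105, 97.5 and 91 CPM in the mutants, a log2 fold change of 1.66 ± 0.17 with an adjusted p of 0.0796 in edgeR. Msx2 (chr13:53466881-53472780), a homeobox factor induced by BMP and Wnt signals, stood at 24.8 and 21.4 CPM in the controls and 98.7, 87.9 and 98.3 CPM in the mutants. Its mutants lay close together and far above both controls, with a log2 fold change of 2.05 ± 0.15 and an adjusted p of 0.054. Msx1, its paralogue, stood at 3.68 and 4.33 CPM against 18.8, 18.1 and 16.2 CPM, a log2 fold change of 2.15 ± 0.31. Axin2, the feedback scaffold of the destruction complex, rose from 3.39 and 4.18 to 9.81, 10.1 and 7.86 CPM. Ccnd1, a G1 cyclin, rose from 353 and 244 to 631, 655 and 540.0 CPM, a log2 fold change of 1.04 ± 0.18. Tnfrsf19, a receptor of the TNF family also known as Troy, gave 0.78 ± 0.16. Sp5, a zinc finger repressor of other targets, had 1 and 1 counts in the controls and 70, 90 and 39 in the mutants, which leaves no fold against the controls. All of these genes had each mutant above both controls. Myc, chosen after its values were seen as the single target that fell, stood at 103 and 108 CPM in the controls and 63.4, 63.5 and 74.1 CPM in the mutants. Bambi, a decoy receptor for BMP and TGFβ, was higher at a log2 fold change of 0.77 ± 0.20 but under 1.5-fold against control B. The call was lost for Axin2 without mutant A (1.26) and mutant B (1.23). The fit of 9 libraries also ended the call of Msx2 (2.2), Msx1 (2.65), Axin2 (1.19) and Myc (-0.33).

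**Figure D2:**
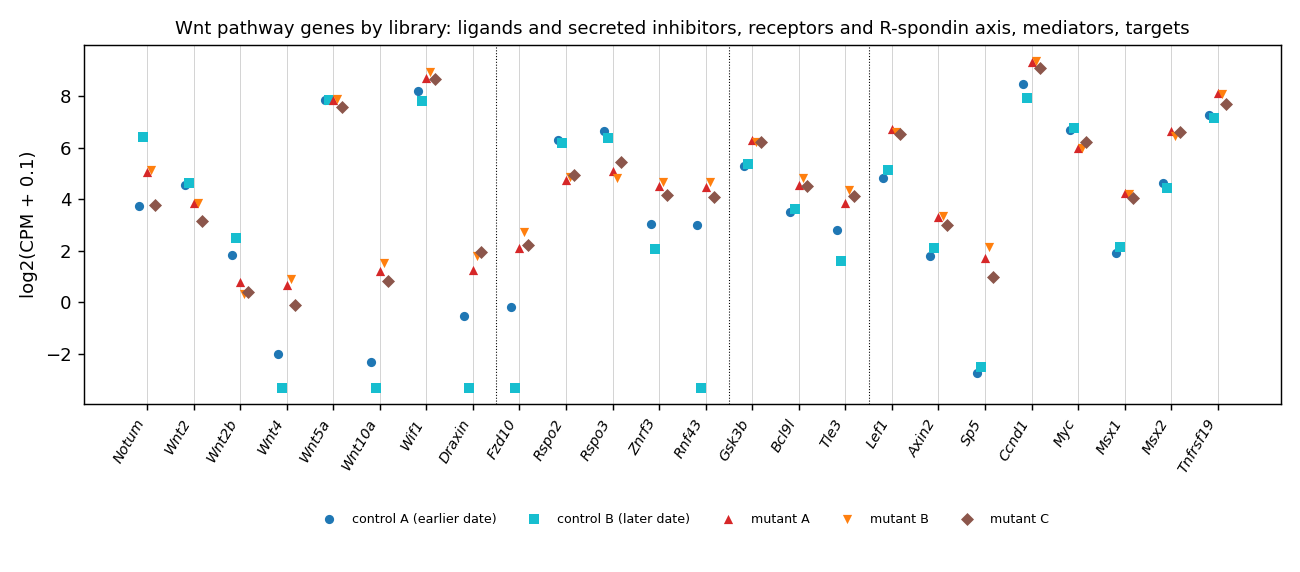
Level of 24 Wnt pathway genes as log2 of CPM plus 0.1 in each of the 5 libraries, with dotted lines between ligands and secreted inhibitors, receptors and the R-spondin axis, intracellular mediators, and targets. For Msx2, Lef1 and Rspo2 the 3 mutants lie together and away from both controls, while for Notum the controls lie at opposite ends.

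The promoters of these targets were searched for the letters CTTTGAT and CTTTGAA, cores of the motif bound by LEF1 and its relatives, on both strands in the 250 bases before the first start that the promoter table lists for each gene. A match is a description of letters and not of a bound site. Sequences were from RefSeq, GRCm38.p6. Of all 27025 promoters 7.67% held a match, and of the 11180 promoters matched to tested genes 5.33% did. The share was 3.6% for 417 promoters of genes that rose and 7.22% for 194 promoters of genes that fell. Of the 19 targets in the list 13 had a promoter in the table, and 2 of these held a match, Sp5 and Dkk1. The 4 promoters below, each given 5′ to 3′ on the strand of its gene, belong to the targets described above, and capitals mark the match. Sp5 is on the plus strand at chr2:70474673-70474922, with its match 104 bases before the start. Lef1 is on the plus strand at chr3:131110047-131110296, Axin2 on the plus strand at chr11:108920099-108920348, and Msx2 on the minus strand at chr13:53472781-53473030, each with 0 matches in this window. For Axin2 this start lies inside the range of the gene, chr11:108917828-108950783, so bases before the first base of that range were not searched.
Sp5: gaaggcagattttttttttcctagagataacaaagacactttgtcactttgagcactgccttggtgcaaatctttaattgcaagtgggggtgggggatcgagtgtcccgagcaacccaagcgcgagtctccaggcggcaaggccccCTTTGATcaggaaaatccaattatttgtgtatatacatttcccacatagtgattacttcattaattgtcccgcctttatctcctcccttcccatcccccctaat
Lef1: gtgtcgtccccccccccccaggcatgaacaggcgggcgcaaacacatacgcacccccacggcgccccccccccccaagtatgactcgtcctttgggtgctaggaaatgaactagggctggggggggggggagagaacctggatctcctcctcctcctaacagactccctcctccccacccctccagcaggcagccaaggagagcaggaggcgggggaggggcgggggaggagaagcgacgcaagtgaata
Axin2: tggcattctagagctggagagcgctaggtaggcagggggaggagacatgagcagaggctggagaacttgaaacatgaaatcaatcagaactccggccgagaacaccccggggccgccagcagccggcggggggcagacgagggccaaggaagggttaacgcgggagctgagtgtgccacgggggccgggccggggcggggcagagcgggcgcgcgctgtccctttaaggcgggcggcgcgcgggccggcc
Msx2: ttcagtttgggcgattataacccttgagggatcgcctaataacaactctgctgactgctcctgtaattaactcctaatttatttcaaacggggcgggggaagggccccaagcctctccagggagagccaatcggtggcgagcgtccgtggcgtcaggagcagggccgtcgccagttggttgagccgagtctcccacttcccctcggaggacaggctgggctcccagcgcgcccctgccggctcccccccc

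Of 30 planar polarity and other noncanonical Wnt genes tested, 3 rose and 0 fell, 10% and 0% against 3.93% and 1.92% of all genes, with a median log2 fold change of 0.17. Fat4 and Dchs1 encode giant cadherins that bind each other between neighbouring cells. Fat4 stood at 129 and 91.6 CPM in the controls and 199.7, 202 and 175 CPM in the mutants, a log2 fold change of 0.81 ± 0.17. Dchs1 stood at 119 and 90.8 CPM against 197, 226 and 152 CPM, a log2 fold change of 0.88 ± 0.21, so both partners of the pair were higher in all mutants. Scrib, a scaffold of cell polarity, was at 10.4 and 3.67 CPM against 15.7, 15.4 and 15.8 CPM. Fat1, another giant cadherin, was higher by a log2 fold change of 0.60 ± 0.13 but under 1.5-fold against control B. Calls were lost for Fat4 without control B (0.57), Scrib without control B, mutant A, mutant B and mutant C (0.57 to 1.16) and Fat1 without control A (0.49) and mutant B (0.53). In the 9-library fit Fat4 (1.37) and Fat1 (0.64) lost the call.

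Of 20 chondrogenic transcription factors tested, 1 rose and 2 fell, 5% and 10% against 3.93% and 1.92% of all genes. The median log2 fold change was -0.01, or 0.06 when counts were scaled by library size alone. It was 0.05 against control A and -0.24 against control B. Sox6, which works with Sox5 and Sox9 on cartilage genes, rose from 76 and 47.5 to 119, 146 and 113 CPM, a log2 fold change of 1.04 ± 0.24. Sox5 stood at 80.9 and 53.6 CPM against 129, 115 and 106 CPM, above both controls in all mutants but under 1.5-fold above control A. Sox9, the master regulator of chondrogenesis, stood at 211 and 677 CPM in the controls and 613, 672 and 518 CPM in the mutants. Control A alone was low, the groups overlapped, and the log2 fold change was 0.44 ± 0.45. Without control A it was -0.17 and without control B 1.5, so its direction depended on the control. Osr2, a zinc finger factor of skeletal and connective tissue precursors, fell from 123 and 94.6 to 71.8, 54 and 53.2 CPM, a log2 fold change of -0.86 ± 0.19. Barx1, a homeobox gene of foregut mesenchyme, stood at 4.27 and 9.1 CPM against 2.07, 2.38 and 2.04 CPM. Osr1, the relative of Osr2, was below both controls in all mutants at a log2 fold change of -0.42, under the fold threshold. Calls were lost for Sox5 without control B (0.52) and Barx1 without control B, mutant A, mutant B and mutant C (-1.7 to -0.99). With all 9 sorted libraries fitted, the call was lost for Osr2 (-0.96) and Barx1 (-1.67).

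Among 19 genes of the cartilage matrix list 2 rose and 1 fell, 10.5% and 5.26% against 3.93% and 1.92% of all genes. Of their log2 fold changes 11 were positive and 8 negative, and the median log2 fold change was 0.31. Matn4, an adaptor protein of cartilage matrix, rose from 277 and 228 to 475, 537 and 378 CPM, a log2 fold change of 0.89 ± 0.18. Fgfr3, the FGF receptor of growing chondrocytes, rose from 87.3 and 99.2 to 175, 176 and 146 CPM, a log2 fold change of 0.84 ± 0.14. It encodes a receptor and not a matrix protein, and it is counted in the FGF list as well. Col2a1 (chr15:97975602-98004724), the main collagen of cartilage, stood at 1166 and 895 CPM in the controls and 1517, 1724 and 1249 CPM in the mutants. All mutants were above both controls, and with a log2 fold change of 0.55 ± 0.18 it missed the fold threshold. The type IX collagens Col9a1 and Col9a2, which coat type II fibrils, were likewise above both controls in all mutants, at 0.45 and 0.31. Chad, chondroadherin of mature cartilage, fell from 5.21 and 15.3 to 3.28, 2.76 and 2.43 CPM. Cnmd, chondromodulin, stood at 102 and 9.02 CPM in the controls and 7.74, 5.94 and 5.82 CPM in the mutants, so that only control A was high, and it was named after its values were seen. The call was lost for Chad without control B, mutant B and mutant C (-1.84 to -0.89). Population and date terms over 9 libraries ended the call of Fgfr3 (0.59) and Chad (-1.94).

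Of 33 fibrous and early mesenchymal matrix transcripts tested, 4 fell and 1 rose, 12.1% and 3.03% against 1.92% and 3.93% of all genes, and all mutants were below both controls in 12, against 15.8% of all genes. The median log2 fold change was -0.10, or -0.003 with library sizes alone. Tnc, tenascin C of condensing and tendon-forming mesenchyme, stood at 116 and 131 CPM in the controls and 49.3, 42.7 and 57 CPM in the mutants. With every mutant below both controls, its log2 fold change was -1.31 ± 0.16. Ogn, the proteoglycan osteoglycin, fell from 221 and 145 to 66.4, 64.8 and 89 CPM, a log2 fold change of -1.31 ± 0.22. Col3a1, a fibrillar collagen of soft connective tissue, fell from 7169.9 and 5713 to 4495, 2841 and 3859.6 CPM, a log2 fold change of -0.78 ± 0.20. Dcn, decorin, which binds collagen fibrils, stood at 861 and 781 CPM against 506, 274 and 582 CPM. Col1a1 and Col1a2, the chains of type I collagen, were also below both controls in all mutants but under the fold threshold, at -0.49 and -0.50. Thbs1, thrombospondin 1, went the other way and rose from 491 and 456 to 724, 842 and 712 CPM, a log2 fold change of 0.69 ± 0.12. Since the libraries are bulk samples, fewer cells of a type and less RNA per cell cannot be told apart. The call was lost for Dcn without control A (-0.78). The fit of 9 libraries also ended the call of Tnc (-1.0).

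Among adhesion genes of condensation 3 of 19 rose and 1 fell, 15.8% and 5.26% against 3.93% and 1.92% of all genes. Cdh2, N-cadherin, which joins condensing cells, stood at 97.1 and 91 CPM in the controls and 143, 145 and 159 CPM in the mutants. Its log2 fold change was 0.67 ± 0.11. Efnb1, an ephrin that sets boundaries in skeletal mesenchyme, rose with a log2 fold change of 0.79 ± 0.18, and Itga1, a collagen-binding integrin, with 1.1 ± 0.27. Cdh4, R-cadherin, was at 2.8 and 9.32 CPM against 1.93, 1.24 and 1.46 CPM and fell. Cdh11, the cadherin of loose mesenchyme, was below both controls in all mutants at -0.27 and was not called. In basement membrane genes 1 of 18 rose and 1 fell, 5.56% each. Agrn, agrin, a heparan sulfate proteoglycan, rose from 156 and 132 to 271, 303 and 233 CPM, a log2 fold change of 0.91 ± 0.15. Leaving out single libraries ended the call of Cdh4 without control B, mutant A, mutant B and mutant C (-2.16 to -0.87).

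Of 33 BMP and TGFβ genes tested, 5 rose and 4 fell, 15.2% and 12.1% against 3.93% and 1.92% of all genes. Bmp4, a ligand of tracheal mesenchyme required for chondrogenesis, stood at 54.7 and 40 CPM in the controls and 87.4, 97.3 and 93.6 CPM in the mutants. All mutants were above both controls, and the log2 fold change was 0.98 ± 0.18. The genotype of 2 of the 3 labelled controls carries a floxed Bmp4 allele. If controls A and B are both among these 3, they cannot both lack it, and which of them carries it cannot be told from the columns. Bmp6 rose from 4.91 and 6.53 to 16.7, 16.7 and 13 CPM, a log2 fold change of 1.44 ± 0.33. Inhba, the activin A subunit, rose from 37.4 and 14.4 to 146, 77.2 and 116 CPM, a log2 fold change of 2.13 ± 0.46, and Chrdl1, a BMP antagonist, rose with 0.72 ± 0.19. Id1, a direct target of BMP signalling, fell from 106 and 85.2 to 46.2, 26.4 and 35.5 CPM, a log2 fold change of -1.4 ± 0.25. Its paralogues Id2 and Id3 were not called, and Id3, the highest of the list in CPM, stood at 1002 and 1093 CPM in the controls and 1101, 987 and 1029 CPM in the mutants. Thus the targets of this pathway differed among themselves. Tgfbr3, the TGFβ coreceptor betaglycan, fell with -1.01 ± 0.19, and Bmp3, a ligand that opposes other BMPs, with -1.25 ± 0.37. Gdf5, a ligand of forming joints, overlapped between groups at 105 and 134 CPM in the controls and 139.6, 121 and 102 CPM in the mutants and was not called. The call was lost for Bmp3 without control B (-0.72). In the 9-library fit Bmp4 (1.19), Bmp6 (1.27) and Tgfbr3 (-0.53) lost the call.

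Among FGF genes 2 of 16 rose and 2 fell, 12.5% each against 3.93% and 1.92% of all genes. Fgf10, a mesenchymal ligand that acts on airway epithelium, fell from 13.1 and 12.9 to 6.25, 6.66 and 4.8 CPM, a log2 fold change of -1.13 ± 0.34. Spry4, a feedback inhibitor of receptor tyrosine kinases, fell from 5.55 and 6.09 to 2.79, 1.09 and 2.38 CPM. The receptor Fgfr4 rose from 14 and 7.56 to 27.4, 40.8 and 22.1 CPM, a log2 fold change of 1.48 ± 0.40, beside Fgfr3 above. The receptors Fgfr1 and Fgfr2, the latter the highest of the list in CPM, overlapped between groups and were not called, Fgfr1 at 91.8 and 179 CPM in the controls and 132, 169 and 91.6 CPM in the mutants and Fgfr2 at 108 and 330.5 CPM in the controls and 294, 346 and 196 CPM in the mutants. Fgf11 overlapped too, at 13.9 and 11.4 against 12.4, 12.7 and 16.6 CPM. Of 16 retinoic acid genes, 1 rose and 2 fell, 6.25% and 12.5%. Both that fell encode the binding proteins that carry retinoic acid in the cell. Crabp1 stood at 491 and 525 CPM in the controls and 161, 207 and 252 CPM in the mutants, a log2 fold change of -1.29 ± 0.19, and Crabp2 at 109.7 and 110.3 CPM against 68.9, 62.2 and 74.5 CPM, -0.68 ± 0.13. Rxrb, a nuclear receptor partner, was at 30.4 and 26.3 CPM against 55.9, 64.2 and 32.3 CPM. Calls were lost for Fgf10 without mutant A (-1.17) and mutant C (-1.0), Spry4 without control B, mutant A, mutant B and mutant C (-1.74 to -1.17) and Rxrb without control B, mutant A and mutant B (0.64 to 0.78). With all 9 sorted libraries fitted, the call was lost for Fgf10 (-0.38), Spry4 (-0.94), Fgfr4 (2.29) and Rxrb (0.52).

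T-box and Gata factors, which pattern foregut and limb mesenchyme, gave 4 that rose and 0 that fell, 36.4% and 0% against 3.93% and 1.92% of all genes. Of 11 tested, all 11 log2 fold changes were positive with a median of 0.86. Tbx3 stood at 132 and 194 CPM in the controls and 346, 315 and 269 CPM in the mutants, a log2 fold change of 0.93 ± 0.20. Tbx5 rose from 70.6 and 69.1 to 172, 119.8 and 87 CPM, with mutant C close to the controls. Gata4, a factor of heart and foregut mesenchyme, had 35 and 2 counts in the controls and 410, 307 and 214 in the mutants, and Gata3 rose from 6.04 and 10.1 to 14, 14.1 and 24.9 CPM. Heart muscle genes summed to 16.1 and 29.2 CPM in the controls and 109, 46.4 and 46.7 CPM in the mutants, with mutant A the highest as for Gata4 and Tbx5, and their part in this result was not tested. Tbx4, expressed in lung and tracheal mesenchyme, stood at 45.4 and 96.2 CPM in the controls and 142, 145 and 74.8 CPM in the mutants and overlapped between groups. In 17 Notch genes 2 rose and 1 fell, 11.8% and 5.88%: Maml1, a coactivator, and Mfng, a modifier of the receptors, rose, and the target Hey1 fell from 15.8 and 22.4 to 10.3, 4.85 and 10.4 CPM. Notch2, the highest of the list in CPM, was higher by 0.65 but under 1.5-fold against control A. Of 10 IGF genes 1 rose (10%), the receptor Igf1r, with 32.2 and 26.5 CPM in the controls and 50, 58 and 54.9 CPM in the mutants and a log2 fold change of 0.89 ± 0.18. The ligand Igf1 was lower by -0.66, with all mutants below both controls. Hedgehog and Foxf genes gave 0 calls among 12, and Hox genes 0 among 12. Calls were lost for Tbx5 without mutant A (0.58), Gata3 without control A (0.82) and mutant C (0.82), Hey1 without control B, mutant A and mutant B (-1.31 to -0.88), Notch2 without control B (0.58) and mutant B (0.43), Igf1 without control A, mutant A and mutant B (-0.63 to -0.48), Maml1 without mutant A, mutant B and mutant C (1.15 to 1.29) and Mfng without control B, mutant A, mutant B and mutant C (0.65 to 1.11). Population and date terms over 9 libraries ended the call of Tbx3 (1.0), Tbx5 (1.26), Gata3 (0.21), Maml1 (1.46), Mfng (1.44) and Notch2 (0.19).

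In the BAF complex, which remodels chromatin, 3 of 26 subunits rose and 0 fell, 11.54% and 0% against 3.93% and 1.92% of all genes, with a median log2 fold change of 0.29. Arid1a, the subunit that defines the canonical complex, stood at 87.3 and 91.9 CPM in the controls and 149.8, 170.5 and 151 CPM in the mutants. All mutants exceeded both controls, with a log2 fold change of 0.82 ± 0.12. Bcl7a and Bicra rose as well, Bcl7a with a log2 fold change of 0.93 ± 0.29 and Bicra at 3.73 and 1.1 against 10.6, 8.65 and 9.75 CPM. Smarca4, the ATPase, was above both controls in all mutants with 0.47 ± 0.13 and missed the fold threshold. Smarcc1, a core subunit, was higher by 0.61 but under 1.5-fold against control B. Smarcd2, another subunit, overlapped between groups at 20.5 and 35.9 CPM in the controls and 26.5, 32.8 and 20.6 CPM in the mutants and was not called. Arid5a, which shares the DNA-binding domain of Arid1a, stood at 16.4 and 5.94 CPM in the controls and 20.4, 19.8 and 18.4 CPM in the mutants, above both controls in all mutants, and was not called. Among 26 cell cycle genes, 1 rose and 0 fell, and that 3.85% is close to the share over all genes. E2f1, an activator of S phase genes, stood at 13.2 and 9.68 CPM in the controls and 112, 22.1 and 92.3 CPM in the mutants. Mutant B lay far under mutants A and C, yet above both controls, and the log2 fold change was 2.72 ± 0.69. The replication helicase genes Mcm5 and Mcm7 were below both controls in all mutants but small in size, at -0.37 and -0.28. None of 9 cell cycle inhibitors was called, and Cdkn1c, the highest of them in CPM, stood at 180.3 and 1074 CPM in the controls and 349, 650.0 and 241 CPM in the mutants. Leaving out single libraries ended the calls of Bcl7a without mutant B (0.75), Bicra without mutant A (1.93) and Smarcc1 without control A, mutant A and mutant B (0.34 to 0.59). The fit of 9 libraries also ended the call of Bcl7a (1.01), Bicra (2.04), Smarcc1 (0.36) and E2f1 (1.88).

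Of the stress and metabolic lists, the interferon response had the largest median change. Of its 10 genes tested 3 fell and 0 rose, 30% and 0% against 1.92% and 3.93% of all genes, all mutants were below both controls in 7, against 15.8% of all genes, and the median log2 fold change was -1.2 (-0.52 against control A and -1.47 against control B). Ifih1 and Irf7 were tested through their level in the controls alone. Ifih1, a sensor of double-stranded RNA, was at 2.8 and 3.67 CPM against 0.225, 0.143 and 0.146 CPM, Irf7 at 3.88 and 7.78 against 0.63, 0.0951 and 1.84 CPM and Rsad2 at 9.87 and 3.23 against 1.08, 2.09 and 0.485 CPM. Of 23 immediate early genes, which dissociation of tissue can induce, 2 fell and 0 rose, 8.7% lower. Fos stood at 1722 and 636 CPM in the controls and 508, 257 and 263 CPM in the mutants, with control A far above the rest and a log2 fold change of -1.77 ± 0.47. Jun overlapped between groups at 1058 and 1256 CPM in the controls and 1910.5, 1665 and 826 CPM in the mutants. Socs3, a feedback inhibitor of cytokine receptors, fell with -1.07 ± 0.30. In 18 genes of glycolysis and hypoxia 1 rose and 0 fell, 5.56% and 0% against 3.93% and 1.92% of all genes. The 1 was Ndrg1, a hypoxia-inducible gene, from 8.64 and 3.15 to 26, 27.8 and 21.4 CPM with a log2 fold change of 2.08 ± 0.46. Of the 18 log2 fold changes 13 were negative and 5 positive, with a median of -0.145, or -0.06 with library sizes alone. All mutants were below both controls in 7 of the 18, against 15.8% of all genes, and above both in 2. Eno1, below both at -0.38, was not called. In 16 genes of cholesterol synthesis 2 rose (12.5%). Dhcr7, a late reductase, stood at 57.9 and 49.7 CPM in the controls and 98, 100.3 and 103 CPM in the mutants, a log2 fold change of 0.91 ± 0.13. The 9 genes of endoplasmic reticulum stress gave 0 calls. Without single libraries, calls were lost for Socs3 without control A (-0.64), Irf7 without control B, mutant A and mutant B (-2.58 to -2.19) and Rsad2 without control A, mutant A and mutant C (-2.32 to -1.39). In the 9-library fit Ifih1 (-4.21), Irf7 (-2.57), Rsad2 (-2.72) and Socs3 (-0.53) lost the call.

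Of 78 ribosomal protein genes tested, 0 rose and 0 fell against each control. Their log2 fold changes were negative in 77, all mutants were below both controls in 63, against 15.8% of all genes, and the median was -0.30 (-0.21 with library sizes alone). Their summed level was 41464 and 46685 CPM in the controls and 34531, 35184 and 37551 CPM in the mutants. Rps2, of the small subunit, stood at 1589 and 1615 CPM in the controls and 1177, 1263 and 1168 CPM in the mutants, a log2 fold change of -0.41 ± 0.08. Rpl3, of the large subunit, stood at 1438 and 1596 CPM against 1237, 1211 and 1205 CPM, -0.31 ± 0.09. Both missed the fold threshold.

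**Figure D3:**
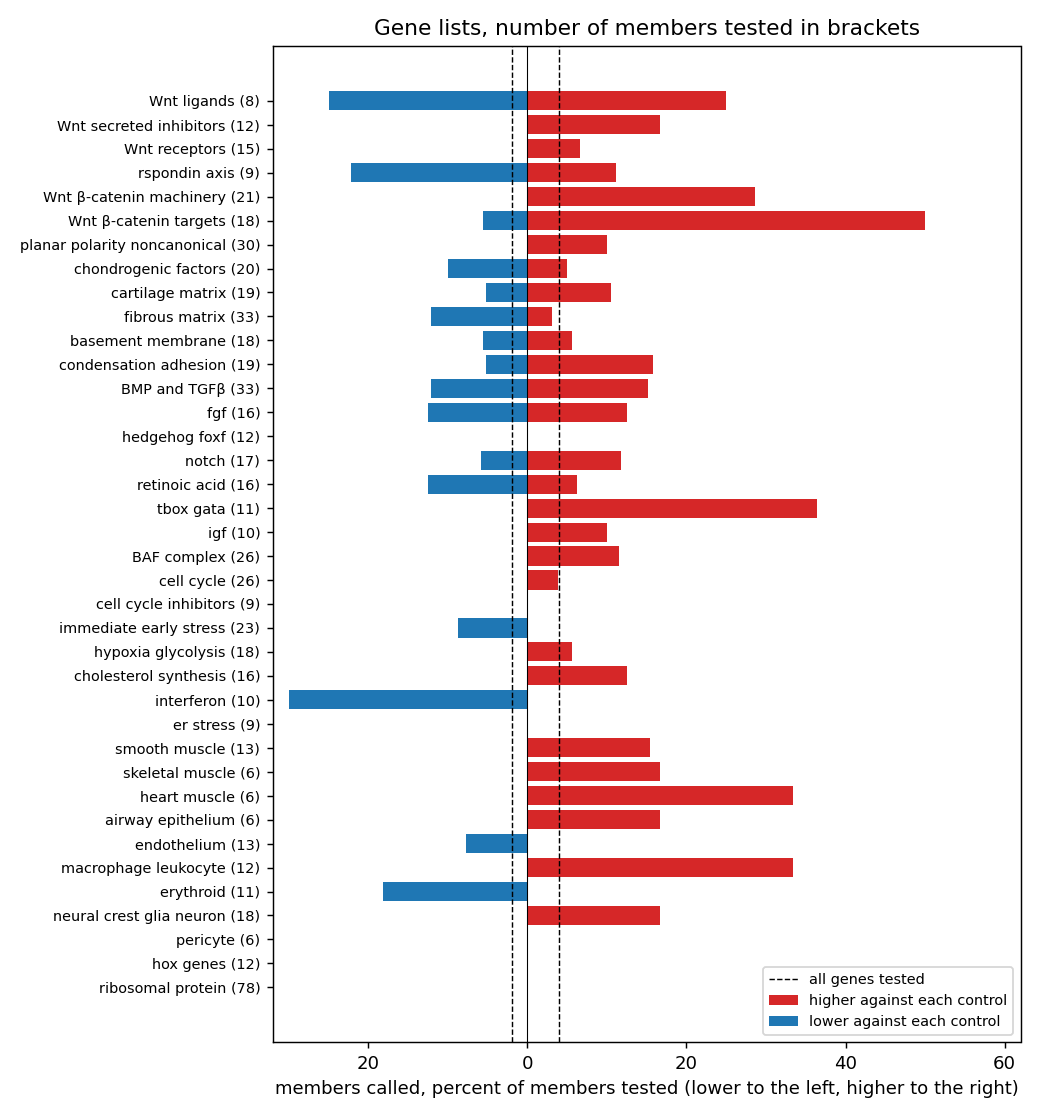
Share of tested members of each gene list that were higher (red, right) or lower (blue, left) against each control, in percent, with the number tested in brackets and dashed lines at the shares over all genes, 3.93% higher and 1.92% lower. The β-catenin targets reach 50% higher.

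Outside the pathway lists, 9 of the genes that rose with the smallest p are given here. Sox11 (chr12:27334268-27342718), a factor of neural and skeletal progenitors, stood at 46 and 40.3 CPM in the controls and 175, 258 and 262 CPM in the mutants. All mutants were far above both controls, with a log2 fold change of 2.43 ± 0.22 and an adjusted p of 0.0567 in edgeR. Ccn4, a matricellular protein first described as a Wnt-inducible gene, rose from 104 and 77.8 to 271, 255 and 207 CPM, a log2 fold change of 1.44 ± 0.19. Plxnb1, a semaphorin receptor, stood at 31.2 and 36.1 CPM against 81.8, 100.3 and 81.8 CPM, 1.39 ± 0.17. Zyx, zyxin of focal adhesions, stood at 76.8 and 64.2 CPM against 145, 149 and 134 CPM, 1.02 ± 0.14. C1qtnf1, a secreted protein related to C1q, gave 1.6 ± 0.21, and Snx22, a sorting nexin, 1.63 ± 0.19. The adaptor Spsb1, Sipa1l1 and Tanc1 gave 1.15 ± 0.14, 1.08 ± 0.14 and 1.08 ± 0.14. Each of these 9 genes kept its call without each library in turn. With all 9 sorted libraries fitted, the call was lost for Ccn4 (1.3) and C1qtnf1 (2.34).

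The genes of largest fold included Mxra7, a matrix remodelling associated gene, at 23.3 and 34.1 CPM in the controls and 754, 112 and 555 CPM in the mutants. Mutant B was far lower than mutants A and C, and the log2 fold change was 4.05 ± 0.84. Gal, the neuropeptide galanin, stood at 2.21 and 5.5 CPM in the controls and 54.5, 50 and 32.1 CPM in the mutants, a log2 fold change of 3.59 ± 0.49. Lyve1, a receptor of lymphatic endothelium and some macrophages, had 7 and 0 counts in the controls and 155, 63 and 148 in the mutants. E030030I06Rik, a transcript of unknown function, was tested through the mutants alone and stood at 0.737 and 1.17 CPM against 8.86, 15.2 and 10 CPM. Akr1c13, an aldo-keto reductase with close copies, had 1 and 0 counts in the controls and 10, 26 and 577 in the mutants, nearly all in mutant C, and its reads may be shared with those copies. That call was lost without either control or mutants B or C. Population and date terms over 9 libraries ended the call of Akr1c13.

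Among genes that fell with the smallest p, Supt16 (chr14:52160419-52197239), a subunit of the histone chaperone FACT, stood at 244 and 286 CPM in the controls and 80.9, 76.5 and 85.6 CPM in the mutants. All mutants were far below both controls, with a log2 fold change of -1.7 ± 0.12 and an adjusted p of 0.054 in edgeR. Rtl3, derived from a retrotransposon gag gene, stood at 177 and 147 CPM against 51.7, 58.5 and 51.2 CPM, -1.59 ± 0.14. Lrrn3, a leucine-rich membrane protein, fell from 34.2 and 36.2 to 7.6, 6.56 and 8.15 CPM, -2.24 ± 0.23. Thbd, thrombomodulin, an anticoagulant receptor, gave -1.68 ± 0.17. Tmem242, a factor in assembly of ATP synthase, gave -1.1 ± 0.12. Cxcl13, a chemokine of lymphoid tissue, stood at 135 and 102 CPM in the controls and 7.56, 8.61 and 18.1 CPM in the mutants, a log2 fold change of -3.37 ± 0.40. Lhfpl1, a membrane protein named for the size of its change and not its p, stood at 11.3 and 8.22 CPM against 1.44, 0.333 and 2.72 CPM. Except for Lhfpl1, whose call was lost without mutant A (-2.67), these genes kept their call without each library in turn. The fit of 9 libraries also ended the call of Lhfpl1 (-2.0).

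**Figure D4:**
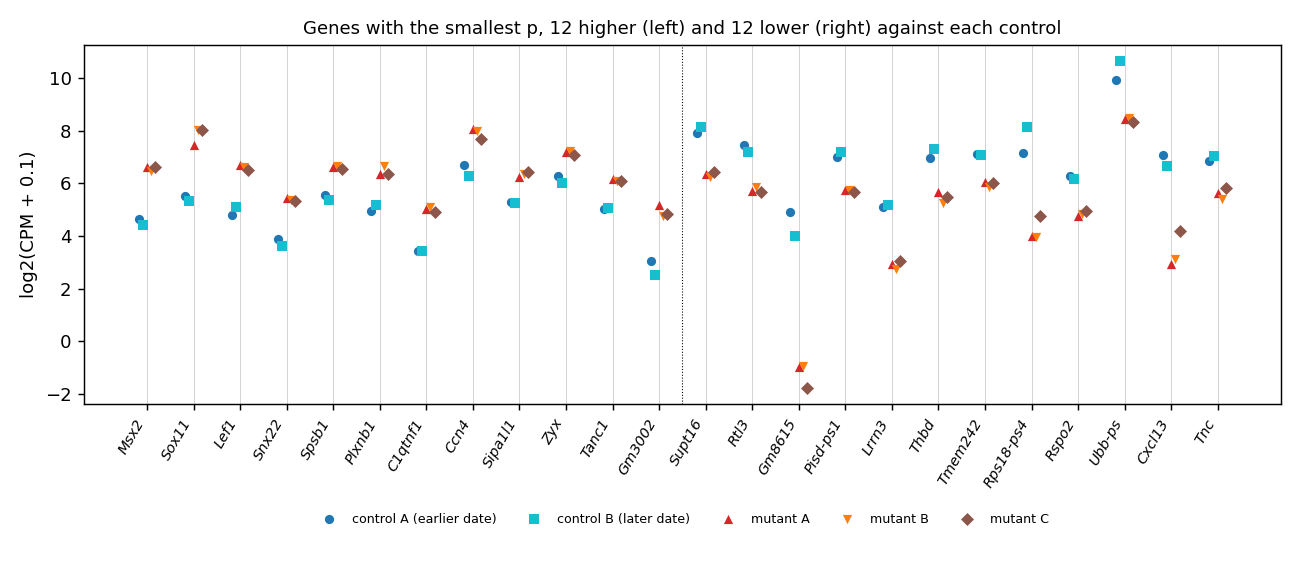
Level of the 12 genes with the smallest p that rose (left) and the 12 that fell (right) against each control, as log2 of CPM plus 0.1 in each of the 5 libraries. The mutants lie on 1 side of both controls, which the choice of these genes requires.

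Several of the largest changes were in entries that share sequence with other genes, so that their reads cannot be assigned with certainty. Rps18-ps4, a pseudogene of a ribosomal protein, stood at 142 and 281 CPM in the controls and 15.8, 15.5 and 26.8 CPM in the mutants, and Ubb-ps, a ubiquitin pseudogene, at 968 and 1609 CPM in the controls and 345, 363 and 324 CPM in the mutants. Pisd-ps1 was lower at 129.6 and 146 against 54, 53.1 and 51 CPM, and Gm8615 at 29.9 and 16.1 against 0.405, 0.428 and 0.194 CPM. Cstdc6 and BC023719 were near absence in the mutants, Cstdc6 at 1.42 and 27.2 against 0, 0 and 0.0485 CPM and BC023719 at 4.62 and 8.8 against 0.045, 0 and 0 CPM. Gm8615, Cstdc6 and BC023719 were tested through their level in the controls alone. A cluster of predicted genes at the start of chromosome 14 was chosen after its values were seen. Of 22 predicted genes tested in its first 8 Mb, 13 rose and 0 fell, between chr14:3049285-7568566, against 3.93% and 1.92% of all genes. Their summed level was 32.9 and 29.6 CPM in the controls and 187, 126 and 207 CPM in the mutants. Gm3002 stood at 8.3 and 5.58 CPM in the controls and 35.7, 27.3 and 28.9 CPM in the mutants, and Gm3500 had 1 and 15 counts in the controls and 353, 148 and 380 in the mutants. These are near-identical copies, several of which reached the filter in the mutants alone, so the count follows in part from how the stretch and its genes were chosen.

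Markers of other cells in the gate differed between libraries. Macrophage genes summed to 452 and 922 CPM in the controls and 635, 514 and 794 CPM in the mutants, with Lyz2 the highest, at 698 CPM in control B. Of 12 tested 4 rose (33.3% against 3.93% of all genes), and Csf1r, the receptor that defines the lineage, stood at 80.5 and 35.5 CPM in the controls and 122, 113 and 161 CPM in the mutants. C1qa stood at 14.8 and 12.2 CPM against 32.2, 25.3 and 36.6 CPM, while Lyz2 was highest in control B. All mutants were above both controls in 6 of the 12, against 17.7% of all genes. Neural crest, glial and neuronal genes summed to 247 and 375 CPM in the controls and 394, 475 and 382 CPM in the mutants, and 3 of 18 rose (16.7%). Erbb3, a receptor of Schwann cell precursors, stood at 19.4 and 24.1 CPM in the controls and 49.4, 44 and 57.1 CPM in the mutants, and Dbh, of noradrenergic cells, at 3.49 and 4.62 against 12.8, 26 and 18.3 CPM. Of the 13 heart muscle genes whose sum is given above, 6 were tested and 2 rose (33.3% of those tested). These were Tnnt2 at 0.589 and 3.23 against 21.9, 4.33 and 7.37 CPM and Myl7 with 42 and 0 counts in the controls and 790, 93 and 154 in the mutants. Mutant A was the highest for both. Each of the 2 was tested through its level in the mutants alone. Nkx2-5 and Nppa, which define that tissue, were under 1 CPM in all 5 libraries. Calls were lost for Tnnt2 without control A, mutant A and mutant C (1.63 to 2.8) and for Myl7 without control B, mutant A and mutant C. In the 9-library fit Csf1r (1.87), C1qa (1.39), Dbh (2.83) and Myl7 lost the call.

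Of the smooth muscle genes 2 of 13 rose (15.4% against 3.93% of all genes). Acta2 stood at 28.4 and 25.6 CPM in the controls and 49.7, 35.6 and 49 CPM in the mutants, and Hspb1, a small heat shock protein, at 3.09 and 2.13 CPM against 16.1, 9.99 and 7.96 CPM. Tnni1 was the 1 of 6 skeletal muscle genes that rose (16.7%), at 12.3 and 3.74 CPM against 35.1, 13.3 and 25.1 CPM, while Myf5 and Pax7 were under 1 CPM in all 5 libraries. The median log2 ratio of 11 red cell genes was -2.97 against control A and 0.50 against control B, so its sign depended on the control. Of the 11, 2 fell (18.2% against 1.92% of all genes). These were the adult globins Hbb-bt at 3274 and 778 against 404, 371 and 478 CPM and Hbb-bs at 2069.9 and 509.8 against 274, 268 and 415 CPM, which share sequence. Their embryonic relative Hbb-y stood at 25646 and 529.6 CPM against 2752, 2034 and 2648 CPM, with control B the lowest library. Its log2 fold change was -2.39, and 2.23 without control A. With the red cell list left out of the table, an alternative chosen after seeing the data, 562 genes were higher and 271 lower against each control. Endothelial genes summed to 204 and 132 CPM in the controls and 176, 131 and 128 CPM in the mutants. Of these 1 of 13 fell (7.69%), Emcn, at 6.88 and 7.26 against 2.92, 0.856 and 1.41 CPM. Of 6 epithelial genes tested, 2 log2 fold changes were positive and 4 negative, with a median of -0.52. Grhl2 was the 1 that rose (16.7%) and had 3 and 2 counts in the controls and 34, 39 and 45 in the mutants. Krt8 was below both controls in all mutants, at 6.04 and 10.4 against 3.51, 2.85 and 4.9 CPM, and was not called. Mesothelial genes summed to 24.1 and 7.63 CPM in the controls and 60.6, 1.66 and 40.2 CPM in the mutants, thyroid genes to 5.16 and 0.88 CPM in the controls and 7.83, 14.4 and 16.9 CPM in the mutants and pericyte genes to 321 and 352 CPM in the controls and 386, 383 and 365 CPM in the mutants, with 0 calls in each. The part of these other cells in the results for mesenchymal genes was not tested. Leaving out single libraries ended the calls of Acta2 without mutant A (0.65), Tnni1 without control B, mutant A and mutant C (0.98 to 1.59) and Emcn without mutant B (-1.7) and mutant C (-1.89). With all 9 sorted libraries fitted, the call was lost for Tnni1 (2.2), Hbb-bt (-7.33), Hbb-bs (-7.11) and Emcn (-4.76).

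**Figure D5:**
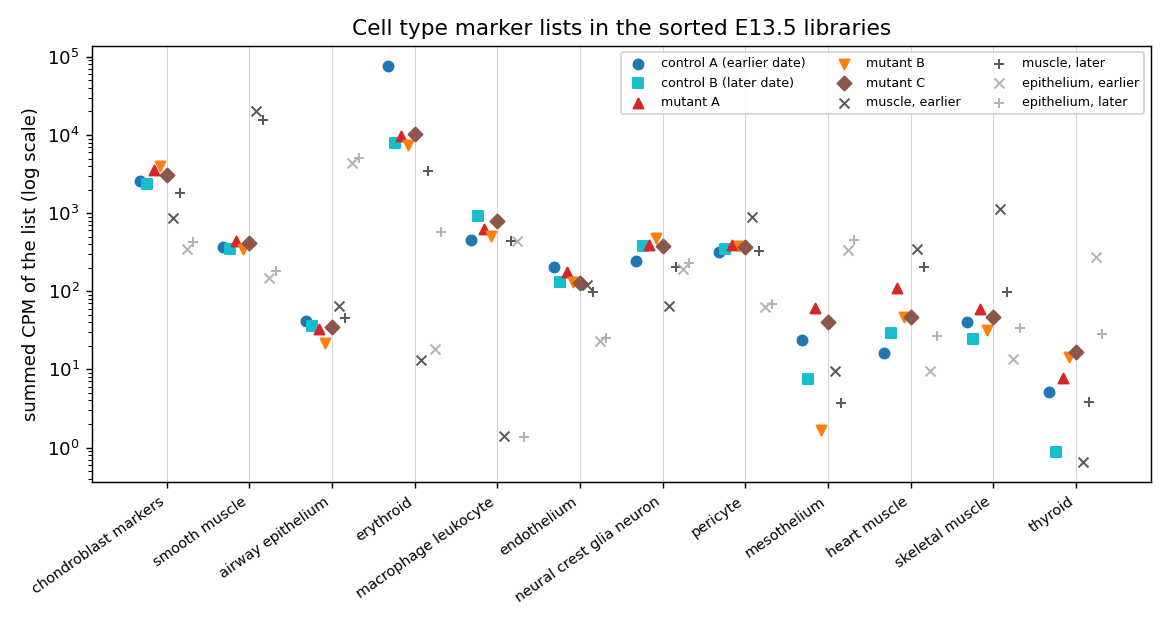
Summed CPM of 12 cell type marker lists on a log scale in the 5 chondroblast libraries and, for comparison, in the 2 muscle and 2 epithelium libraries of E13.5. Red cell genes reach 76996 CPM in control A, and smooth muscle and epithelial genes lie far below their level in the sorted populations.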

How the data were processed

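The table deposited by the authors holds expected counts, which are estimates and often fractional, without normalization in 47248 entries and 22 columns, and 55.3% of the values used here were not whole numbers. The submitters' processing notes name mm10, Partek and limma, while the study's text names DESeq2 for differential expression. The aligner and the counting tool are not given in the sources used here. Columns were grouped by their names, and 4 that matched no label were not used. Entries were summed for each of 26202 symbols and rounded. Overlapping or antisense genes cannot be separated, since the strand of the reads is not given. Coordinates are from the RefSeq table of GRCm38.p6.

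Genes at 1 CPM or more in over 50% of the libraries of a group were tested with edgeR 4.0.16 (R 4.3.3), with TMM scaling and the quasi-likelihood test, 2-sided, with Benjamini-Hochberg adjustment over 14120 genes. Every adjusted p in the text is from this test unless DESeq2 1.42.0 or limma 3.58.1 is named. For the SE, the absolute log2 fold change was divided by the root of the F statistic. The ratio to each control used log2 CPM with a prior count of 2. The fit was tested on simulated data. Each library counted as 1 replicate, as the labels name separate samples, though mutant B and mutant C have 1 number in common, and p-values measure the spread between libraries. No library repeated another, with chi-square values per gene of 134.8 between the controls and at least 20.91 between mutants. Where a control held 3 counts or fewer, no fold is given. Counts are given for these genes, except for Rnf43, which is in CPM.

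The genes named are Notum, those the study's text names for this comparison, for each direction the 12 with the smallest p and the 6 with the largest change against the nearer control among called genes with a mean of at least 5 CPM in the higher group, and from each list up to 6 called members, up to 4 abundant ones and those given as not called. Members and lists were chosen with earlier results of these data known. Alternatives covered the tool, scaling, filters, the date in the column names, other sorted libraries, thresholds, each library left out and red cell genes left out.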

Additional observations from a re-analysis of the deposited data

How the results depend on the processing

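With the date in the column names as a term, which leaves control B as the only control of the mutants' date, 2811 genes were higher and 1246 lower at the study's thresholds, 2604 passed the adjustment, and the log2 fold change of Notum was -1.64. The count of 0 past the adjustment became 526 with DESeq2, 5 with limma voom, 42 without a filter, 5 with at least 10 counts in every library and 12 with all 9 sorted libraries in the fit. Against each control, 107 genes were lower in the fit of 9 libraries, 280 were higher and 135 lower at 2-fold, and 982 were higher and 478 lower when no p was asked. Of the 120 named genes that rose or fell, 67 kept their call in the fit of 9 libraries and 67 at 2-fold.

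Leaving out each library in turn gave 444 to 2813 genes higher and 226 to 1396 lower at the study's thresholds, and 0 to 2540 past the adjustment. Against each control the range was 356 to 2795 higher and 173 to 1395 lower. For Notum it was -1.64 to 1.01, and for the named genes 90 to 113 kept their call. Without a control the remaining control is assumed to vary like the mutants. The cause of these shifts was not tested.

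Of 555 genes higher and 271 lower against each control, 265 and 105 kept their call with 9 libraries, and 554 and 267 with red cell genes left out, an alternative chosen after seeing the data. With library size as the only scaling 77% of the genes past the study's thresholds were higher, against 65.5% with TMM, and the median log2 fold change over all genes was 0.11 against 0.02. For the 135 named genes past the study's thresholds, 1636 of 1864 alternative values kept their direction and their call, 228 lost the call, and 0 reversed. Of the 135, 120 were called with every mutant beyond both controls, which leaves little room for a reversal within the same 5 libraries. The 0 is therefore no test of their direction. Among named genes that were not called, Notum (1.01 without control B), Sox9 (-0.17 without control A) and Hbb-y (2.23 without control A) were of those that changed sign.

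No paired analysis was possible because the columns carry no replicate number of the labels. The smallest library, control B, held 13513229 counts. The effect of its depth on calls was not tested.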
